A study of Mus musculus with 8 samples.

Results

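The response of dendritic cells (DCs) without GEF-H1 to the microtubule-destabilizing drug ansamitocin-P3 was read from RNA-seq of GEF-H1-/- cells kept in medium alone and GEF-H1-/- cells given the drug. A gene was a member of this comparison if its value had a status of OK in both knockout groups, if it reached 1 FPKM in at least 1 of them, and if it was not a microRNA or small nucleolar RNA gene, and 11089 of the 23356 genes in the table were members. FPKM is the number of sequenced fragments corrected for transcript length and sequencing total, so levels are per length. The cells were bone marrow-derived DCs (BMDCs) from mice on a C57BL/6N background, grown for 6 days in GM-CSF (10 ng/ml) and IL-4 (10 ng/ml). The 4 groups had 2 libraries each: WT without treatment (NT), WT with ansamitocin-P3 (AP3, 100 nM), Arhgef2-KO NT and Arhgef2-KO AP3, each collected at 5 h. The knockout is carried by every cell of the mouse, so it was in place while the DCs developed in culture, and all 4 groups shared the same growth factors.

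The deposited table holds 1 value for each gene and group, into which the authors' program combined the 2 libraries, together with the lower and upper bound of a 95% interval. The spread between the libraries of a group cannot be read from these values, so no difference was tested, and no SD or p-value can be given. The table does not give the depth reached, for which the study's methods state only a target per sample. The interval was the error used throughout: in control GEF-H1-/- DCs its median width was 45.5% of the FPKM. Changes are log2 ratios of FPKM + 1, treated over control, and the added 1 makes the change of weakly expressed genes look smaller. The 2-fold limit is on this scale, while folds given for single genes are plain ratios of FPKM. A gene was taken to have risen or fallen where the interval of treated cells lay wholly above or below that of control cells, and changes past 2-fold were counted separately. A gene under 1 FPKM in control cells passed the filter through treated cells alone, so it could only be counted as a rise. Arhgef2, which encodes GEF-H1 (chr3:88616207-88648052, GRCm38), in GEF-H1-/- DCs was at 4.59 FPKM (3.54 to 5.63) in control cells and 4.16 (3.22 to 5.11) after the drug, against 42.3 and 45.9 FPKM in WT, so a low level of transcript from the locus was still counted in the knockout and did not move with the drug (log2 change -0.11 (-0.49 to 0.26)).

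DC transcripts were present in the cells, beside those of other myeloid cells. All 10 conventional DC markers were above 1 FPKM in control GEF-H1-/- DCs, from Flt3 (2.63 FPKM) and Kit (3.04) to H2-Ab1 (506) and Cd74 (3073), and their sum was 4067 FPKM in control and 4582 in treated cells. Neutrophil genes (9 of 9 measured, led by S100a8 and S100a9) summed to 21908 and 22313 FPKM, macrophage and monocyte genes (10 of 10) to 1363 and 1269.9, eosinophil genes (7 of 8) to 1233 and 1056, and mast cell and basophil genes (8 of 10) to 397 and 381. B cell genes summed to 9.99 and 7.16 FPKM, with Igll1 at 0 in both groups. Across these lists only 1 gene of another cell type rose, Cd14, and 1 fell, the macrophage receptor Mertk (from 4.56 to 2.53 FPKM, log2 change -0.65). Their part in the results was not tested. In bulk RNA, fewer cells of a type and less RNA per cell cannot be told apart.

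GEF-H1 is a guanine nucleotide exchange factor that activates RhoA and is held inactive while bound to microtubules. Drugs that take microtubules apart release it, and free GEF-H1 acts on RhoA signalling and on innate immune pathways. Cells also sense their pool of soluble tubulin dimers, through tubulin autoregulation, in which ribosomes translating alpha- and beta-tubulin are recognised by the first residues of the new chain and the mRNA is degraded or spared. Ansamitocin-P3 is a maytansine relative that binds tubulin, and DCs answer microtubule loss with maturation and release of inflammatory cytokines.

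Most genes of GEF-H1-/- DCs stayed close to their control level. The log2 change lay within 0.5 of zero in 94.6% of the members, and the middle of its distribution, from the 5th to the 95th percentile, spanned -0.35 to 0.44 around a median of -0.01. Past 2-fold, 68 genes were higher (0.613% of 11089) and 6 were lower (0.0541%). By separate intervals, which could be read for the 10975 members whose FPKM lay inside its own interval, 308 genes rose (2.81%) and 105 fell (0.957%). The rises were therefore more numerous and larger: 66 of the 68 genes past 2-fold upwards also had separate intervals, and the largest fall was 1.57 against a largest rise of 2.79. In made-up data with the errors of control knockout cells, 0.733% of 10775 unchanged genes had separate intervals, both directions together. Part of the calls, and more so of the falls, can thus arise without a change. Counts in the gene lists below are to be read beside these shares. At the edge of the 2-fold limit, Zfp36l1 (1.02) and Slc7a11 (1.03) lay just inside it and Arap2 (0.999) and Flrt3 (0.997) just outside.

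**Figure D1:**
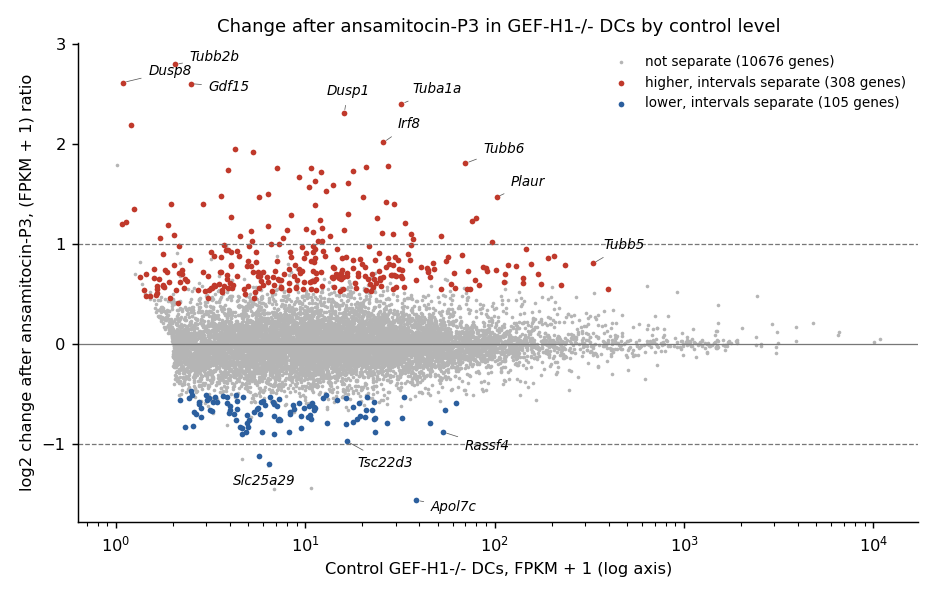
Log2 change after ansamitocin-P3 in GEF-H1-/- DCs (vertical axis, ratio of FPKM + 1) against the control level (FPKM + 1, log axis), 1 point per member gene. Red and blue points are the 308 genes that rose and the 105 that fell by separate 95% intervals, grey points the rest, and dashed lines mark 2-fold. Tubulin genes are among the top points over the whole range of levels, from Tubb2b near 1 FPKM to Tubb5 at 329 FPKM.

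Tubulin genes led the response. The list held 20 genes, of which 15 were members; 11 of these rose, 6 of them past 2-fold, and none fell, with a median log2 change of 0.80. The other 5 (Tuba3a, Tuba3b, Tubal3, Tubb4a and Tubg2) were under 1 FPKM. Summed over the list, tubulin transcripts went from 1042 to 2102 FPKM. Every gene that rose encodes alpha- or beta-tubulin, the subunits of the microtubule wall.

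The first bases of the coding sequence are shown because they encode the residues that tubulin autoregulation reads: methionine, then arginine and glutamate, then isoleucine in beta-tubulins or cysteine in alpha-tubulins. Each line gives the first 12 coding bases, 5′ to 3′, from GENCODE M21 transcripts on GRCm38, with the 3 codons after the start in capitals, and genes with the same 12 bases share a line.
Tubb2b: atgCGAGAGATC
Tubb2a: atgCGCGAGATC
Tubb3 and Tubb4b: atgAGGGAGATC
Tubb5: atgAGGGAAATC
Tubb1: atgAGAGAGATC
Tuba1a, Tuba1b and Tuba1c: atgCGTGAGTGC
Tuba4a: atgCGCGAGTGC
Tuba8: atgAGGGAATGC
Tubg1: atgCCGAGAGAA
Tubd1: atgTCGATAGTG
Tube1: atgACCCAGTCG

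The codons differ from gene to gene. The 8 lines for alpha- and beta-tubulins all spell methionine, arginine and glutamate, then isoleucine (beta) or cysteine (alpha). The last 3 lines, of gamma-, delta- and epsilon-tubulin, do not. Among the 10162 members with an annotated coding start, 13 began with such a run (an arginine codon, a glutamate codon, and an isoleucine or cysteine codon after the start). They were 12 tubulins, Tubb6 included, and Ing1, a chromatin reader that was at 19.1 and 18.3 FPKM (log2 change -0.06). Of the 12 tubulins 11 rose, and the other was Tubb1, the beta-tubulin of platelets, at 1.56 FPKM (1.11 to 1.99) in control cells and 2.22 (1.64 to 2.83) after the drug. The run is a trait of the alpha- and beta-tubulin family, so this count repeats that of the gene list. Whether autoregulation had a part in the rises was not tested.

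The tubulins that rose most were those with low or middle control levels. Tubb2b (chr13:34127008-34130354), which is known best from developing neurons, rose from 1.055 FPKM (0.715 to 1.41) to 13.2 (10.7 to 15.8), a log2 change of 2.79 (2.44 to 3.15). Its neighbour Tubb2a rose from 16.8 FPKM (13.5 to 20.04) to 58.1 (47.5 to 68.8), a log2 change of 1.73 (1.36 to 2.10). Tuba1a, a main alpha-tubulin of neurons, rose from 31.1 FPKM (24.9 to 37.3) to 168 (136 to 201), or 5.41-fold. Tubb6, a beta-tubulin found in many tissues, rose from 68.9 FPKM (56.2 to 81.6) to 243 (199 to 288), and Tubb3, the class III beta-tubulin used as a neuronal marker, rose from 2.89 FPKM (2.13 to 3.65) to 12.02 (9.59 to 14.4). In each of these pairs the treated interval lay well above the control interval.

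The tubulins with the highest control levels rose by less on the log2 scale. Tubb5, the most abundant, rose from 329 FPKM (256 to 401) to 575 (444 to 702) (log2 change 0.80), a gain of 246 FPKM, the largest of any gene with separate intervals. Tubb4b rose from 204 FPKM (157 to 258) to 374 (283 to 473) and Tuba4a from 139.8 FPKM (108 to 172) to 222 (172 to 271), log2 changes of 0.87 and 0.66. Tuba1b, at 111 FPKM (88.9 to 134) in control cells and 172 (136 to 207) after the drug, and Tuba8, at 89.1 FPKM (71.5 to 107) in control cells and 151 (122 to 179.9) after the drug, rose by 0.62 and 0.76. The gamma-tubulin of the microtubule nucleation complex, Tubg1, was at 13.4 FPKM (10.6 to 16.2) in control cells and 11.5 (9.06 to 13.8) after the drug and its intervals overlapped, as did those of Tubd1 (log2 change 0.17) and Tube1 (-0.08), the delta- and epsilon-tubulins of centrioles. Some of these genes share long stretches of sequence, and the library reads were 35 bases long. Of the 35-base windows of Tuba1a, 76.1% also occur in transcripts of other genes, as do 68.4% for Tuba1b, 54.7% for Tuba1c, 54.4% for Tubb2a, 46.4% for Tubb4b and 41.6% for Tubb2b, so how the authors' counting divided reads within these groups is uncertain. For Tubb6, Tubb3, Tubb5, Tuba4a and Tuba8 the share was 1.08% to 2.48%, and all 5 rose.

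**Figure D2:**
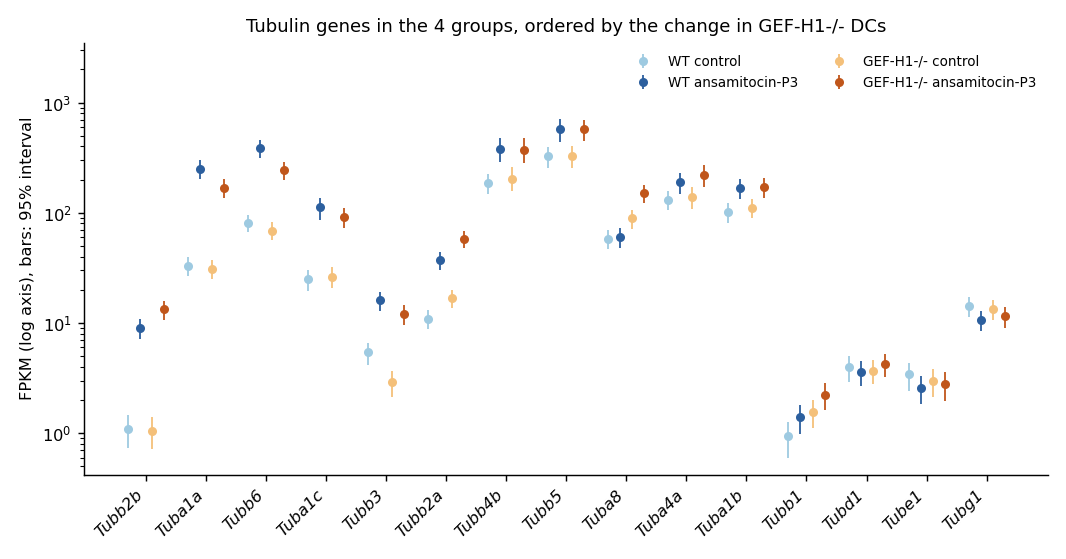
FPKM (log axis) of the 15 measured tubulin genes in the 4 groups, with bars for the 95% interval, ordered by the change in GEF-H1-/- DCs. Treated GEF-H1-/- cells lie above control cells for the first 11 genes, while Tubb1, Tubd1, Tube1 and Tubg1 on the right have overlapping intervals, and Tuba8 shows a rise in GEF-H1-/- cells (89.1 to 151 FPKM) that is not seen in WT (58.2 to 60.1 FPKM).

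The same was seen in WT DCs for the family as a whole, with a median log2 change of 0.81 and 9 of 15 genes with separate intervals. Gene by gene, the difference between genotypes did not have one direction. The log2 change of Tuba1a was 2.89 in WT cells and 2.40 without GEF-H1, a difference (GEF-H1-/- minus WT) of -0.49 (-1.050 to 0.07), whose interval takes in zero. For Tubb2b the difference was 0.54 (0.03 to 1.052) and for Tuba8 0.71 (0.14 to 1.27), both larger in GEF-H1-/- DCs with an interval above zero. These intervals were propagated from the table's bounds, and how far they hold the spread between cultures is not known.

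Other genes of the microtubule system moved little. Among 34 measured genes for tubulin folding, tubulin modification and microtubule-binding proteins, 2 rose and none fell, and the median was -0.00. Over all members with readable intervals 2.81% rose and 0.957% fell, and in WT 6 genes of this list rose and 2 fell. The 2 that rose without GEF-H1 were Clip2 (from 13.4 FPKM (10.3 to 16.7) to 22.01 (16.8 to 27.2)) and Clasp2 (from 7.93 FPKM (6.40 to 9.45) to 12.1 (9.84 to 14.4)). Both encode proteins of growing microtubule ends, but no shared trait can be read from 2 genes. Among small GTPases and their exchange factors, Rhob, an early response gene, rose from 28.1 FPKM (20.01 to 32.5) to 61.4 (43.8 to 70.4), past 2-fold, Akap13, another RhoA exchange factor, rose from 25.6 to 44.3 FPKM, and Rhoq and Net1 rose by 0.71 and 0.55 on the log2 scale. Actin genes and targets of serum response factor, a transcription factor that answers to actin, had a median of 0.21 in GEF-H1-/- DCs and 0.78 in WT: 4 of 29 rose, against 13 in WT. Those described here were the actin-binding Pdlim7 (from 22.4 to 40.9 FPKM), Tpm4 (from 175 to 265 FPKM) and Vcl (from 24.2 to 36.7 FPKM). The difference between genotypes was -1.28 (-1.97 to -0.59) for Pdlim7.

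Phosphatases that switch off MAP kinases were prominent among the largest rises. Dusp8, which acts on JNK and p38, was nearly silent in control cells and rose from 0.0888 FPKM (0.0368 to 0.147) to 5.66 (4.25 to 7.01), a log2 change of 2.61 (2.30 to 2.92). It passed the filter through treated cells alone. Dusp1, the early response phosphatase of p38 and JNK, rose from 15.04 FPKM (10.7 to 18.98) to 78.3 (56.5 to 90.7), or 5.21-fold. Dusp16, a JNK phosphatase, rose from 4.32 FPKM (3.44 to 5.20) to 19.1 (15.5 to 22.6). Dusp7, which acts on ERK, went the other way and fell from 16.7 FPKM (12.4 to 20.2) to 9.29 (6.79 to 11.4), and Dusp4, the nuclear phosphatase of ERK, was at 9.80 FPKM (7.25 to 12.3) in control cells and 14.9 (11.1 to 18.1) after the drug with overlapping intervals. In the whole list of 25 feedback phosphatases, SOCS proteins and mRNA decay factors, 5 rose, 4 of them past 2-fold, and none fell, with a median of 0.22. Zfp36l1, an mRNA decay factor, rose from 96.1 to 195 FPKM and Zc3h12c, an RNase of the regnase family, from 6.48 to 10.04 FPKM.

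The rest of the 15 largest rises held secreted factors, transcription factors and kinases. Gdf15, a stress-induced member of the TGF-beta family, rose from 1.48 FPKM (0.736 to 2.08) to 14.04 (8.30 to 15.04), and Inhba, which encodes the activin A subunit, rose from 19.8 FPKM (15.9 to 23.7) to 69.6 (57.02 to 82.3). Irf8 (chr8:120736376-120756692), the interferon regulatory factor needed for development of several DC subsets, rose from 24.8 FPKM (19.8 to 29.8) to 103 (82.4 to 124), or 4.16-fold. It stood alone in its family: of 8 measured interferon regulatory factors it was the only one with separate intervals, and the other 7 lay between -0.41 and 0.36 on the log2 scale. Stk38l, the NDR2 kinase, rose from 3.27 FPKM (2.54 to 4.001) to 15.5 (12.4 to 18.5), with 21.3% of its 35-base windows shared with other genes, and Helz2, a helicase that acts as a nuclear receptor coactivator, rose from 6.12 FPKM (4.89 to 7.36) to 23.03 (18.5 to 27.6). For Irf8 and Helz2 the difference from WT was -0.29 (-0.86 to 0.28) and 0.31 (-0.21 to 0.84), both with an interval around zero, while Stk38l (-1.12 (-1.63 to -0.61)) and Inhba (-1.78 (-2.30 to -1.25)) changed less in GEF-H1-/- DCs.

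**Figure D3:**
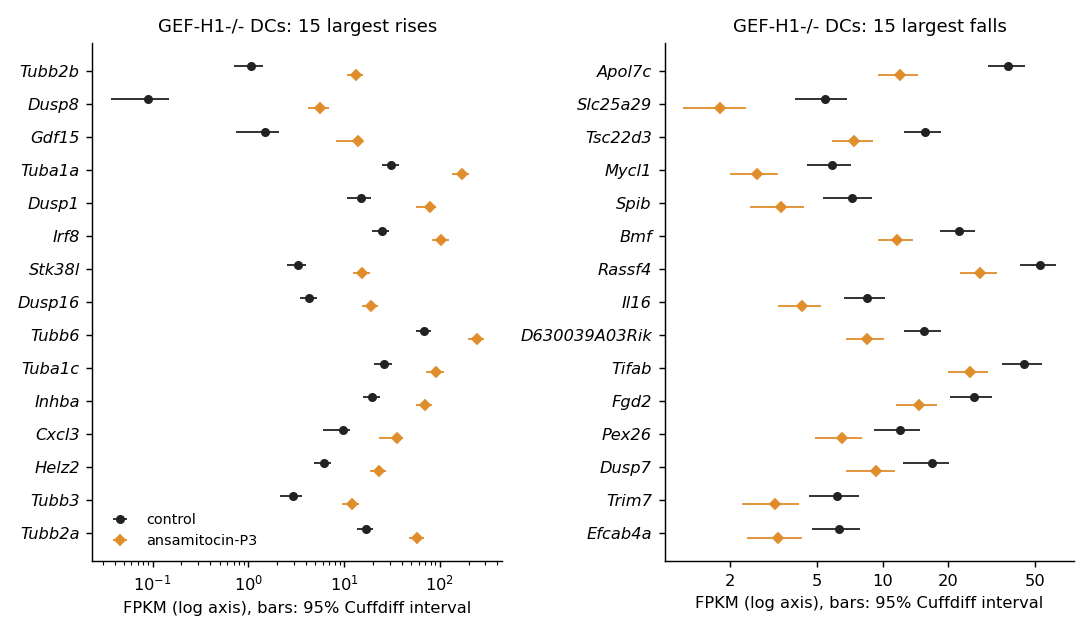
FPKM (log axis) of the 15 largest rises (left) and 15 largest falls (right) among genes with at least 5 FPKM in one knockout group and separate intervals, in control (black circles) and treated (orange diamonds) GEF-H1-/- DCs. Bars are 95% intervals and do not overlap within a gene, which is how the genes were chosen. As plain ratios of FPKM, rises span up to 12.6-fold for Tubb2b and 63.8-fold for Dusp8, which began at 0.0888 FPKM. As log2 ratios of FPKM + 1 these 2 were 2.79 and 2.61.

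Promoter sequence around a motif is shown for the 4 highest of these genes that hold one of 5 motifs searched on both strands in the 300 bases around the RefSeq start site (250 before it, 50 after, GRCm38.p6). The motifs were the CRE (TGACGTCA), bound by ATF and CREB factors, the E-box (CACGTG), the AP-1 site (TGANTCA), a C/EBP-ATF element (TGATGNAA) and the core of the interferon-stimulated response element (ISRE). The motif is in capitals and 30 bases stand on each side.
Dusp8, CRE 63 bases before the start, chr7:142095310-142095377, minus strand: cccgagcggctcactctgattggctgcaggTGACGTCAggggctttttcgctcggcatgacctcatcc
Gdf15, E-box 83 bases before the start, chr8:70632143-70632208, minus strand: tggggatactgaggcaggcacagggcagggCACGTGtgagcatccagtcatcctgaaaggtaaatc
Dusp1, CRE 143 bases before the start, chr17:26508578-26508645, minus strand: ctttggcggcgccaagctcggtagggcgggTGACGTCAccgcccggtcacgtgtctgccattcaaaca
Stk38l, CRE 64 bases before the start, chr6:146724836-146724903, plus strand: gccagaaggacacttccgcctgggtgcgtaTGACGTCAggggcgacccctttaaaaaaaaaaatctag

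Gdf15 has 2 annotated starts, and the window around the other held none of the 5 motifs. Dusp8 held a further CRE 107 bases before its start, Dusp1 an E-box 126 bases before, and Tubb2a a CRE 59 bases before. Cxcl3 held an E-box and Tubb3 a C/EBP-ATF element. The windows of Tuba1a, Irf8, Dusp16, Tuba1c, Inhba and Helz2, also among the largest rises, held none of the 5 motifs. A CRE stood in 1.79% of all 32851 promoters of the table and in 3.67% of the promoters of all members, an E-box in 7.15% and 12.2%. Only 43 of the 68 genes past 2-fold upwards (63.2%) had a promoter in the table, under the 80% set as a minimum, so the share of motifs among them is not given.

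Early response and AP-1 genes rose in part. Of 30 measured EGR, KLF and other early response genes 10 rose, 3 of them past 2-fold, and 1 fell, with a median of 0.15. Gadd45a, a stress gene of the MAP kinase and DNA damage responses, rose from 8.23 FPKM (5.75 to 10.4) to 28.3 (20.6 to 34.7), and the zinc finger factor Klf6 rose from 51.02 FPKM (39.2 to 62.3) to 109 (83.999 to 133). Its relative Klf4, a factor of monocyte differentiation, was the one that fell (from 22.1 FPKM (17.2 to 26.9) to 12.7 (9.82 to 15.5)). Of 21 AP-1 and ATF factors 4 rose, with a median of 0.30: Fosl2 (from 19.2 to 54.6 FPKM) and Jun (from 28.4 to 76.6 FPKM) past 2-fold, and Jund (from 117 to 203 FPKM) and Atf3 (from 101 to 168 FPKM) by less. NF-κB subunits and inhibitors had a median of 0.22, and 5 of 23 rose, none past 2-fold. They were the subunits Rel (from 19.7 to 34.2 FPKM) and Rela (from 31.2 to 49.97 FPKM), the adaptors Traf1 (from 43.1 to 73.2 FPKM) and Ripk2 (from 27.4 to 44.7 FPKM), and the inhibitor Tnip3 (from 43.6 to 73.4 FPKM). In WT the AP-1 and NF-κB lists had medians of 0.53 and 0.55.

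Cytokines had the next highest median after tubulins, 0.56 in GEF-H1-/- DCs against 1.04 in WT, and 7 of 16 rose. Osm, an IL-6 family cytokine, rose the most, from 15.7 FPKM (12.5 to 18.96) to 49.9 (39.6 to 60.004), and Il6 went from 12.9 to 40.97 FPKM. Low-level cytokines were among the risers too: Tnfsf15, a TNF family ligand, went from 0.448 to 1.35 FPKM, and Il12b, the p40 subunit of IL-12, from 1.33 to 2.65 FPKM. Tnfsf15 passed the filter through treated cells alone, so it could enter the list count only as a rise. Tnf itself was at 16.2 FPKM (12.7 to 19.8) in control cells and 22.9 (17.99 to 27.8) after the drug and Csf1, the macrophage growth factor, at 54.8 FPKM (41.9 to 68.1) in control cells and 86.1 (65.2 to 107) after the drug, both with overlapping intervals. Among 19 chemokines 6 rose, and the median was 0.39 (1.16 in WT). The monocyte-attracting Ccl2 rose from 78.9 FPKM (54.1 to 87.9) to 190.1 (132 to 212) and Ccl7, its neighbour on chromosome 11, from 25.8 FPKM (17.2 to 31.2) to 70.6 (48.1 to 83.2). Both started lower in WT, where Ccl2 went from 34.8 FPKM (23.6 to 41.9) to 147 (102 to 165). Ccl7 went from 10.03 FPKM (6.43 to 12.2) to 62.7 (42.6 to 74.2) there, so neither ended lower without GEF-H1. Cxcl3 also started lower in WT (3.97 FPKM against 9.73) but ended higher there (145 FPKM against 35.4). Ccl3, a chemokine that attracts monocytes and T cells, rose from 74.6 FPKM (46.8 to 81.4) to 176 (111 to 179). Ccl4 beside it went from 77.2 to 185 FPKM, but this treated value lay outside its own interval and was not counted. Of 20 DC maturation genes 4 rose and 1 fell (median 0.21): Cd200, an inhibitory surface ligand, rose the most, from 11.04 FPKM (8.38 to 13.6) to 38.6 (29.6 to 47.4), Ccr7, the receptor that guides DCs to lymph nodes, rose from 234 FPKM (184 to 284) to 405 (316 to 489.8), and Icosl, a ligand that costimulates T cells, fell from 20.2 FPKM (16.4 to 23.9) to 13.6 (10.99 to 16.2).

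Receptors and enzymes of tissue remodelling followed the same direction at a smaller size than in WT. Of 26 genes for matrix proteases, adhesion and plasminogen activation 7 rose and none fell, with a median of 0.29 against 1.06 in WT. Plaur, the urokinase receptor, rose from 101 FPKM (72.5 to 117) to 281 (201 to 322), a log2 change of 1.47 against 2.94 in WT. Thbs1, the matrix protein thrombospondin-1, rose from 66.3 to 124 FPKM (0.89 against 3.60) and the collagenase Mmp13 from 31.2 to 52.8 FPKM (0.74 against 3.53). Plat, the tissue plasminogen activator, rose from 0.0786 FPKM (0 to 0.157) to 1.48 (1.0498 to 1.92) in GEF-H1-/- DCs. In WT DCs it went from 0.0570 to 0.477 FPKM, a difference between genotypes of 0.72 (0.37 to 1.07). Plat passed the filter through treated GEF-H1-/- cells alone and was under 1 FPKM otherwise. This difference is therefore only a description. Of 23 C-type lectins, TREM and scavenger receptors 5 rose (median 0.23), led by the myeloid receptor Trem1 (from 11.3 FPKM (9.12 to 13.5) to 26.4 (21.6 to 31.2)), the scavenger receptor Olr1 (from 18.9 to 33.7 FPKM) and the C-type lectin Clec4e (from 6.68 to 11.5 FPKM). Clec7a, the beta-glucan receptor Dectin-1, went from 397 to 582 FPKM, the only riser among 18 IL-4-type genes.

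Metabolic and stress lists had from 1 to 4 risers each, on medians between -0.13 and 0.07. NRF2 targets and iron genes had a median of -0.01 in GEF-H1-/- and 0.79 in WT DCs, with 4 of 18 higher: the cystine transporter Slc7a11 (from 11.3 to 24.1 FPKM), the peroxiredoxin repair enzyme Srxn1 (from 37.2 to 58.4 FPKM), the autophagy receptor Sqstm1 (from 140.3 to 214 FPKM) and the thioredoxin reductase Txnrd1 (from 69.9 to 102 FPKM). Hmox1, the heme oxygenase, was at 119 FPKM (95.3 to 141) in control cells and 98.6 (78.8 to 118) after the drug, and changed by -0.27 against 0.83 in WT. Of 23 genes of glucose uptake and glycolysis, Ndrg1 (from 15.1 to 34.3 FPKM) and the growth factor Vegfa (from 6.05 to 11.5 FPKM) rose, both known as hypoxia targets and neither a glycolytic enzyme (median -0.02). Of 25 genes of the unfolded protein and integrated stress responses 3 rose (median 0.04), Slc7a11, Atf3 and Ppp1r15a (from 13.4 to 22.4 FPKM), while the chaperone Hspa5 was at 409 and 457 FPKM. Heat shock chaperones (median 0.07) had 1 of 16 higher, Hspa1b, which stayed low (from 0.634 to 1.29 FPKM) and passed the filter through treated cells alone. In lipid mediator synthesis 1 of 13 rose, the cyclooxygenase Ptgs2 (from 0.776 to 1.66 FPKM), with a median of -0.13. Ptgs2 too passed the filter through treated cells alone, so these 2 list calls could only be rises.

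Lists of cell death and the cell cycle held from 0 to 3 calls each, beside 2.81% higher and 0.957% lower over all members with readable intervals. Pmaip1, which encodes the BH3-only protein NOXA, rose from 34.9 FPKM (25.6 to 41.3) to 70.1 (51.7 to 82.97), and Bmf, a BH3-only protein that is tethered to the cytoskeleton, fell from 22.3 FPKM (18.2 to 26.4) to 11.6 (9.47 to 13.8). They were the only calls among 16 measured BCL2 family genes, and the median was 0.14. Of 24 p53 targets, Pmaip1, Btg2 and Plk2 rose, and Cdkn1a and Mdm2, defining members of the list, were at 328 and 352 FPKM and 43.8 and 56.3 FPKM (median -0.07). No mitotic or spindle checkpoint gene was called among 30 (median 0.05). All 30 measured genes of G1/S and DNA replication were below zero on the log2 scale, from -0.59 to -0.01 with a median of -0.24 against -0.01 over all members, but 1, the cyclin gene Ccne1 (from 22.2 FPKM (17.7 to 26.6) to 14.4 (11.5 to 17.4)), had separate intervals. Ribosome biogenesis genes had no call among 30 and a median of -0.05, where WT had 13 genes lower and a median of -0.52. None of 8 measured LXR targets was called (median 0.02).

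**Figure D4:**
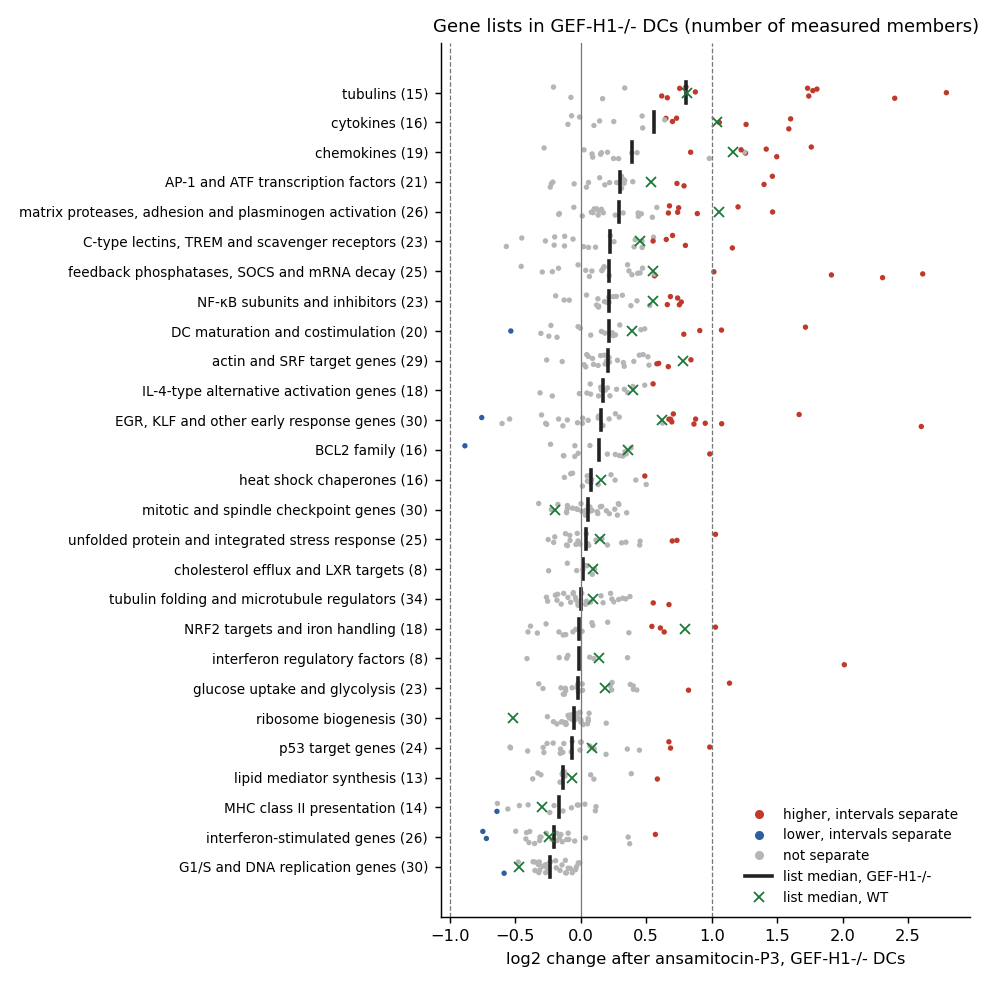
Log2 change after ansamitocin-P3 in GEF-H1-/- DCs for the measured members of 27 gene lists (1 point per gene, red and blue where the intervals were separate), with the list median as a black bar and the WT median as a green cross. Tubulins have the highest GEF-H1-/- median (0.80) with the WT cross on it, while cytokines, chemokines, matrix genes and NRF2 targets have WT crosses to the right of their bars.

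Few genes fell by a wide margin. Of the 6 lower past 2-fold, 3 had separate intervals. Apol7c (chr15:77524867-77533315), an apolipoprotein L family gene, fell the most, from 37.6 FPKM (30.5 to 44.7) to 12.03 (9.54 to 14.5), a log2 change of -1.57 (-1.95 to -1.18) that matched the one in WT (-1.56). Of its 35-base windows 34.8% are shared with other genes, chiefly Gm8221, which was also lower (from 3.64 to 1.47 FPKM). Slc25a29, a mitochondrial carrier of basic amino acids, fell from 5.43 FPKM (3.95 to 6.86) to 1.80 (1.22 to 2.37), and Lpar5, a receptor for lysophosphatidic acid, from 4.68 FPKM (3.27 to 6.06) to 1.60 (0.985 to 2.22). The other 3 were Btg3 (from 5.86 to 1.504 FPKM), Gm5416 (from 3.64 to 1.09 FPKM) and Snhg9 (from 9.77 to 2.97 FPKM), of which the first 2 had overlapping intervals and the last an FPKM outside its interval.

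The 15 largest falls included transcription factors and signalling proteins of immune cells. Mycl1, the Myc family factor of DCs, fell from 5.83 FPKM (4.50 to 7.15) to 2.65 (1.99 to 3.32), and Spib, an Ets factor of plasmacytoid DCs and B cells, fell from 7.204 FPKM (5.34 to 8.92) to 3.44 (2.46 to 4.34). Tsc22d3, the glucocorticoid-induced leucine zipper, fell from 15.6 FPKM (12.5 to 18.6) to 7.42 (5.85 to 8.99). Rassf4, a Ras association domain protein, fell from 52.4 FPKM (42.7 to 62.1) to 27.9 (22.6 to 33.2), and Fgd2, an exchange factor for Cdc42 in antigen-presenting cells, fell from 26.1 FPKM (20.4 to 31.8) to 14.6 (11.5 to 17.8). Tifab, an inhibitor of TRAF6 signalling, fell from 44.2 FPKM (35.1 to 53.4) to 25.04 (19.9 to 30.2), and Il16, a T cell chemoattractant, from 8.43 to 4.26 FPKM. The peroxisome gene Pex26 (from 11.999 to 6.52 FPKM), Trim7 (from 6.20 to 3.23 FPKM), Efcab4a (from 6.32 to 3.32 FPKM) and D630039A03Rik (from 15.5 to 8.44 FPKM) completed the list. Tifab, Rassf4 and Fgd2 fell less than in WT, by differences of 1.35 (0.79 to 1.90), 0.93 (0.42 to 1.45) and 0.89 (0.32 to 1.46), while for Spib (-0.23 (-0.86 to 0.40)), Tsc22d3 (-0.32 (-0.87 to 0.23)) and Mycl1 (-0.45 (-0.9999 to 0.11)) the interval took in zero.

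Interferon-related genes were mostly lower. Of 26 measured interferon-stimulated genes 22 were below zero, with a median of -0.20 (-0.24 in WT), but 2 fell, Usp18, which removes ISG15 (from 18.5 FPKM (14.8 to 22.2) to 10.8 (8.58 to 13.1)), and Gbp5 (from 9.64 FPKM (7.79 to 11.5) to 5.33 (4.22 to 6.44)), and Rsad2, the antiviral enzyme viperin, rose from a low level (from 0.791 to 1.66 FPKM). Rsad2 passed the filter through treated cells alone, so it could only be counted as a rise. Because Gbp5 had fallen, the guanylate-binding proteins and immunity-related GTPases, interferon-induced proteins that attack the vacuoles of intracellular pathogens, were looked up as a family after their values had been seen. Of 16 measured members 15 were below zero and 9 fell, with a median of -0.52 (-0.61 in WT, where 8 fell). Irgm1 fell from 15.4 to 10.2 FPKM, Irgm2 from 9.42 to 5.76 FPKM, Ifi47 from 18.1 to 11.7 FPKM, Gbp7 from 5.16 to 3.04 FPKM and Gm12250 from 3.92 to 2.01 FPKM. Gbp2, the most abundant, was at 29.3 and 22.7 FPKM and Igtp at 12.5 and 8.78 FPKM, neither with separate intervals. Tgtp1, which also fell, shares 83.7% of its 35-base windows with other genes, and Gbp9 and Gbp7 share 15.4% and 14.2%.

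Promoter stretches with an ISRE core, the motif through which interferon-activated factors act, are shown for 4 genes that fell, picked after their values were seen. The core is 2 GAAA runs with 2 bases between them, on either strand and here in capitals, with 30 bases on each side (RefSeq, GRCm38.p6).
Apol7c, 55 bases before the start, chr15:77533331-77533400, minus strand: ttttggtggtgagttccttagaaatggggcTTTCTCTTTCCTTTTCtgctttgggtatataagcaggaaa
Gbp5, 165 bases before the start, chr3:142496739-142496808, plus strand: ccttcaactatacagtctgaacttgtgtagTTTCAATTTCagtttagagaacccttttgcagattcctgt
Gm12250, 46 bases before the start, chr11:58183767-58183836, plus strand: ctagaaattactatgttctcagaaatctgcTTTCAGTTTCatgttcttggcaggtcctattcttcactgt
Irgm2, 64 bases before the start, chr11:58214883-58214952, plus strand: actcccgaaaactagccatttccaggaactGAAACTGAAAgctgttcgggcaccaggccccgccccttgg

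In Apol7c a second core overlaps the first. Of the 105 genes that fell, 89 (84.8%) had a promoter in the table, and 14 of these (15.7%) held an ISRE core, against 3.85% of all members with a promoter and 3.44% of all promoters. Of the 9 GTPase genes that fell, 7 had a promoter and 6 of these held the core. These 6 are among the 14, so the counts are not separate, and the share among GTPase genes that did not fall was not looked at. Genes of MHC class II presentation had a median of -0.17 (-0.30 in WT). March1, the ubiquitin ligase that removes MHC class II from the surface, fell from 8.83 FPKM (7.13 to 10.5) to 5.30 (4.24 to 6.36), the 1 call among 14, and Ciita, the master regulator of the class II genes, was at 15.4 FPKM (11.4 to 19.5) in control cells and 9.56 (7.13 to 12.2) after the drug with overlapping intervals.

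Set against WT over the same 11089 genes, the response without GEF-H1 was narrower and ran in the same direction. In WT 389 genes were higher past 2-fold (3.51%) and 130 lower (1.17%), and by separate intervals 1004 were higher (9.16%) and 836 lower (7.63%). The SD of the log2 change over genes was 0.26 in GEF-H1-/- and 0.50 in WT DCs. Across these genes the changes in the 2 genotypes had a Pearson r of 0.77, as a description, since genes are not independent replicates. Of the 308 genes that rose in GEF-H1-/- DCs 277 (89.9%) also rose in WT, which is 27.6% of the WT risers, and 255 had the larger change in WT; their median was 0.73 in GEF-H1-/- and 1.24 in WT. Of the 105 that fell 94 (89.5%) also fell in WT, 11.2% of the WT list, with medians of -0.67 and -0.93. No gene rose with separate intervals in one genotype and fell in the other.

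**Figure D5:**
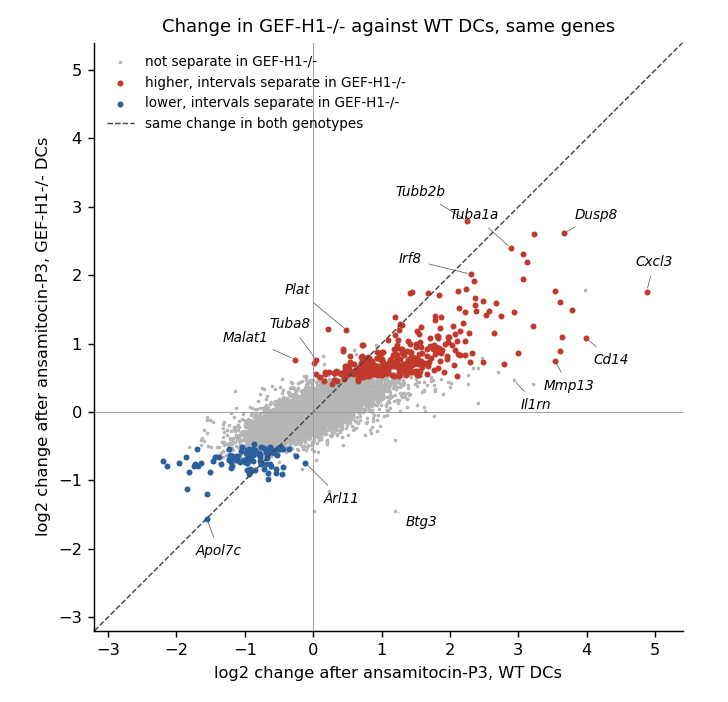
Log2 change after ansamitocin-P3 in GEF-H1-/- DCs (vertical axis) against WT DCs (horizontal axis) for the same genes, with the dashed line at equal change. Most genes that rose (red) lie under the line, such as Cxcl3, Cd14 and Mmp13, while Tubb2b, Tuba8, Malat1 and Plat lie above it and Apol7c lies on it.

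A small number of genes had a larger log2 change without GEF-H1 than in WT. Of the 413 genes with separate intervals in GEF-H1-/- DCs, 156 had a difference between genotypes whose interval left out zero. In 8 of these the change was larger in GEF-H1-/- DCs. The 413 were chosen by these same knockout values, which favours larger changes there, so the 8 are only a description. The nuclear long noncoding RNA Malat1 rose from 39.6 FPKM (30.6 to 48.6) to 68.1 (52.9 to 82.2) in GEF-H1-/- DCs and went from 40.1 to 33.2 FPKM in WT, a difference of 1.03 (0.41 to 1.65). Tuba8 and Tubb2b, described above, were 0.71 (0.14 to 1.27) and 0.54 (0.03 to 1.052). Arl11, an ARF-like GTPase, fell from 31.3 FPKM (24.3 to 38.1) to 18.3 (14.1 to 22.4) against from 33.4 to 30.7 FPKM in WT, a difference of -0.63 (-1.25 to -0.01). For Calcrl, the calcitonin receptor-like receptor (0.49 (-0.09 to 1.07)), the methyltransferase Mll1 (0.40 (-0.06 to 0.86)), the lysosomal enzyme receptor Igf2r (0.36 (-0.14 to 0.85)), the glycosyltransferase B3gnt8 (-0.38 (-0.96 to 0.19)) and D630039A03Rik (-0.37 (-0.88 to 0.15)) the interval took in zero. In all, 42 genes had separate intervals in GEF-H1-/- but not in WT DCs, and for 6 of them the difference itself left out zero.

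At the other end, several genes with large WT changes had overlapping intervals in control and treated GEF-H1-/- DCs. Il1rn, the antagonist of the IL-1 receptor, was at 197 FPKM (161 to 234) in control cells and 274 (223 to 324) after the drug and went from 101 to 778 FPKM in WT, a difference of -2.46 (-3.02 to -1.90). Csf1 differed by -1.77 (-2.42 to -1.12), and Mmp12, the macrophage elastase, by -2.12 (-2.77 to -1.47) (635 FPKM (489.6 to 777) in control cells and 951 (733 to 1156) after the drug). Among genes that rose in both, Cxcl3 differed by -3.11 (-3.79 to -2.44), Thbs1 by -2.71 (-3.30 to -2.13) and Osm by -2.00 (-2.58 to -1.43). Among the phosphatases, Dusp8 differed by -1.053 (-1.496 to -0.61) and Dusp1 by -0.76 (-1.45 to -0.08). For Dusp16 (-0.44 (-0.95 to 0.06)) the interval of the difference took in zero, as it did for Tuba1a, Tubb5, Irf8 and Helz2, for Cd200 (-0.13 (-0.76 to 0.50)) and for the falls of Apol7c (-0.01 (-0.55 to 0.53)) and Il16 (0.01 (-0.53 to 0.55)).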

How the data were processed

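Strand-specific libraries from polyadenylated RNA were read as 35-base paired ends, and the authors computed FPKM (fragments per kilobase of transcript, scaled to library size) with Cuffdiff, version 1.05 in the submitters' processing notes, on mm10 (GRCm38); the aligner behind this table is not given in the sources used here. The deposited table gives 1 FPKM per gene and group, pooled over the 2 libraries of the group, with the bounds of its 95% interval as the authors' program set them, and a status. Group columns were matched to samples by name, the WT columns, which name no genotype, by elimination, and 0 columns of per-sample values were left unused. The table does not give the depth that the libraries reached, for which the study's methods state only a target per sample.

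From these values the log2 ratio of FPKM + 1 (pseudocount 1 FPKM) was computed with pandas 2.3.3 and numpy 2.4.6 in Python 3.11.15. Of 23356 genes, 107 lacked a status of OK in a knockout group, 12095 more were under 1 FPKM in both, and 65 small RNA genes were left out, which left 11089. A gene rose or fell where the intervals of control and treated cells were separate and each FPKM lay within its own interval, and the 2-fold limit was applied separately. Since values are pooled, no test was run. Errors of log2 changes and of differences between genotypes were propagated from the interval bounds. Members and the 29 pathway and 9 marker lists were chosen with earlier results of these data known. Of the pathway lists 27 are described, and some genes and lists are not reported here. Named genes were Arhgef2, the 15 largest rises and falls among genes with separate intervals and at least 5 FPKM in 1 knockout group, the 4 largest changes of each list and every member of lists of up to 20 genes, and the 10 genes at that level whose change exceeded that in WT most; the others named were chosen after their values were seen. List symbols were matched through RefSeq synonyms in 10 cases, and 3 were not found. Sequences came from RefSeq promoters (GRCm38.p6) and GENCODE M21 transcripts. The calculation was checked beforehand on made-up data with known changes. Alternatives were other pseudocounts, filters, limits and scaling of the columns. Figures were drawn with matplotlib 3.10.9.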

Additional observations from a re-analysis of the deposited data

How the results depend on the processing

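No paired analysis was possible because the table pools the 2 libraries of each group into 1 value, so the replicate numbers in the labels have no columns; leaving out a library could not be run for the same reason. The counts past 2-fold moved with the pseudocount: with 0.1 FPKM 117 genes were higher and 32 lower, and with 5 FPKM 39 were higher and 1 was lower, against 68 and 6 with 1 FPKM. A 1.5-fold limit gave 290 higher and 107 lower. Requiring separate intervals as well left 3 genes lower, and keeping small RNA genes gave 31 lower and 92 higher. By separate intervals, a filter of 5 FPKM left 58 of 105 falls and 249 of 308 rises. Rescaling the treated column (factor 1.01) to a median ratio of 1 gave 70 and 6 genes past 2-fold and 315 and 105 by separate intervals. No called named gene changed sign under these settings. Of 225 named genes, 8 moved past the error of their log2 change with a pseudocount of 0.1 FPKM and 14 with 5 FPKM, none with rescaling, and among them were Dusp8 (4.93 and 1.07, against 2.61), Gdf15 (3.16 and 1.56, against 2.60), Plat (3.14 and 0.35, against 1.20) and Tubb2b (3.53 and 1.59, against 2.79). Among list medians only that of tubulins moved so far, to 1.304 once a minimum of 5 FPKM removed Tubb1, Tubd1 and Tube1. The table does not give depth, so what it limits was not measured, and how far the intervals hold the spread between cultures is not known.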

Other observations

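Some genes outside the lists, chosen after their values were seen, rose past 2-fold. Among growth factors, Pdgfb, a subunit of platelet-derived growth factor, rose from 4.70 to 14.8 FPKM and Hbegf, an EGF receptor ligand, from 9.13 to 21.5 FPKM. The granzyme B inhibitor Serpinb9 rose from 32.4 to 76.1 FPKM and its neighbour Serpinb9b from 7.40 to 19.6 FPKM, log2 changes of 1.21 and 1.29 that stood at 1.25 and 1.26 in WT. Il12rb2, a subunit of the IL-12 receptor, rose from 10.2 to 28.4 FPKM, and the chromatin organiser Satb1 from 2.60 to 9.03 FPKM.

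The 68 genes higher past 2-fold lay in part side by side: 5 pairs, 10 genes, were within 100 kb of each other, Ccl2 with Ccl7 and Ccl3 with Ccl4 on chromosome 11, Serpinb9 with Serpinb9b and Tubb2a with Tubb2b on chromosome 13, and Tuba1a with Tuba1c on chromosome 15. They had a median of 4 exons in the annotation against 8 over all members, and 39.7% had at most 3 exons against 20.95%. The median genomic span was 11587 bases against 23642. For the 308 genes with separate intervals the medians were 7 exons and 26334 bases. The median control level of the 68 genes was 10.2 FPKM against 12.8 over all members.

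Among genes with at least 5 FPKM and separate intervals, the largest gains in transcript after Tubb5 included Clec7a (185 FPKM), Plaur (179.9 FPKM) and Tubb6 (174 FPKM), while the largest loss was 25.6 FPKM, of Apol7c. As also noticed afterwards, Tuba8, Pex26 and Usp18 lie in the same region of chromosome 6, within 121183667 to 121270917 on GRCm38, where Tuba8 rose and the other 2 fell.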
